A study of Drosophila melanogaster with 3 samples.

Results

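The genes described are the Drosophila melanogaster translation initiation factor genes, taken as the protein-coding genes of the Ensembl annotation BDGP6.54 whose symbols begin with eIF. The rule gave 44 genes, with 62 annotated start sites, of 13945 protein-coding genes. Chromatin immunoprecipitation with sequencing (ChIP-seq) had been used to find where the protein CG8944 lay on DNA. The only group was 3 biological replicates of whole embryos, 0 to 24 h old and of both sexes together, from 1 transgenic line that stably expressed CG8944 with GFP at its C terminus. An anti-GFP antibody pulled down the tagged protein. Embryos of all those stages and all their cell types were mixed, and no second line, untagged line or control library was analysed here. The deposited data used were lists of peaks, each with a summit and a signal value from the authors, on the dm6 build. Replicates 1, 2 and 3 had 30000, 30000 and 27393 entries, the replicates pooled had 23886, and 3511 peaks had passed the authors' threshold of irreproducible discovery rate (IDR) and are called reproducible. The reproducible peaks were the 3511 strongest entries of the pooled list. Read depth was unknown, since the lists give no counts.

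Eukaryotic initiation factors bring the ribosome to the start codon of an mRNA. The cap-binding protein eIF4E, the scaffold eIF4G and the helicase eIF4A prepare the 5′ end, eIF3 holds the small subunit, eIF2 carries the initiator tRNA and is recharged by eIF2B, eIF1 and eIF1A help to select the start codon, and eIF5B joins the large subunit. Most of these factors are needed in every dividing cell, and early fly embryos rely on translation of maternal mRNA. Some genes have extra copies that are known mainly from the male germ line, such as eIF4E3.

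Sequences at the occupied promoters are shown first because the position of each summit and one short motif recur in the results. A gene is called occupied here if at least 1 reproducible summit fell no farther than 500 bp from one of its transcription start sites (TSSs). The 51 bases centred on the strongest summit of 6 occupied genes follow, on dm6 and in the direction of the eIF gene, with matches on either strand to the motifs searched in capitals. They were taken in order of signal among genes whose window had at most 30 bases of annotated untranslated region. Sequence is not shown for eIF6, eIF3c and eIF3m, so the strongest site of all, that of eIF6, is not among them.
eIF3h, chr2L:5052464-5052514, minus strand: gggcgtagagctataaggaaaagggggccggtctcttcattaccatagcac
eIF4EHP, chr3R:24109051-24109101, minus strand: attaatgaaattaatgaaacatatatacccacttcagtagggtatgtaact
eIF1, chr3L:3222990-3223040, plus strand: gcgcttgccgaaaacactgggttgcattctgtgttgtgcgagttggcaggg
eIF3a, chr3R:4433913-4433963, minus strand: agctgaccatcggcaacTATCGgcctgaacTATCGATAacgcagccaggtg
eIF1A, chr3R:18274464-18274514, plus strand: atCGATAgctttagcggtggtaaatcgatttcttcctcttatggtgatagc
eIF2gamma, chr3R:15263438-15263488, minus strand: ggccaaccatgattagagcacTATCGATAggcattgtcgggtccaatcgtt

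The motif TATCGATA is the DNA replication-related element (DRE), which the factor DREF binds at promoters of many growth genes, and CGATA, which lies inside it, is the core of the BEAF-32 insulator site. The DRE was found within 50 bp of the summit, a wider window than the one printed above, in 5 of 13 reproducible peaks at eIF genes (38.5%), where 4.42% of the 1812 reproducible promoter peaks of protein-coding genes held it. No test was made of that difference. Among the 5, the peaks of eIF1, eIF3a and eIF1A had summits nearer to the starts of the neighbouring genes RpL28, CG1074 and Vps39. Which gene their DREs belong to was not tested. The 5 sites, shown because they recur in peaks of different genes, read as follows with 10 bases on either side and the DRE in capitals. They were chosen after the matches were seen.
eIF1, chr3L:3223035-3223062: gcagggcaacTATCGATAagcatttcgt
eIF3a, chr3R:4433916-4433943: cggcctgaacTATCGATAacgcagccag
eIF2A, chr3L:21824866-21824893: tactatcgctTATCGATAcaccgcgtac
eIF1A, chr3R:18274453-18274480: tgatgatagaTATCGATAgctttagcgg
eIF2gamma, chr3R:15263450-15263477: attagagcacTATCGATAggcattgtcg

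At eIF2gamma the DRE covered the summit itself. At eIF3a the nearest base of the DRE was 5 bp from the summit, at eIF1A 19 bp, at eIF2A 22 bp and at eIF1 30 bp. CGATA was found in 7 of 13 peaks (53.8%), these 5 and those of eIF3c and eIF5B, against 25.3% of all reproducible promoter peaks. The DRE-bearing peaks were not the strongest ones, since they ranked from 658 at eIF1 to 2624 at eIF2gamma. The median rank of the 13 peaks was 1396, and that of the 1812 was 1630. In the upper 1755 peaks of the list, 6 eIF genes were occupied (13.6%) and 9.67% of protein-coding genes. Over all reproducible promoter peaks the DRE share was 4.15% in the upper 1755 of the list and 4.72% in the rest. GAGAG, the GAGA factor site, was found at eIF3c alone and in 9.22% of all reproducible promoter peaks. TATAAA, the letters of the TATA box, was found at eIF6 alone and in 15.4%. The eIF6 summit was 101 bp upstream of its TSS, so that match lay more than 50 bp from the TSS. It was not shown to act as a TATA box. CAGCTG (an E-box, 6.24% of all), CTTTC (the core of the TCT initiator, 19.5%) and Ohler motifs 1 (1.05%), 6 (0.662%) and 7 (7.12%) were not found in the 13 windows. Only the windows at eIF3a, eIF3c and eIF2gamma reached a TSS of the eIF gene. For the others the lack of CTTTC does not show that the start site has no TCT initiator. All motifs were sought on both strands.

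The DRE was also frequent at eIF promoters that carried no reproducible peak. In the 300 bp from 250 bp upstream to 50 bp downstream of the outermost TSS it occurred at 12 of 44 eIF genes (27.3%) and at 9.36% of all protein-coding genes. It was present at 5 of the 11 occupied eIF genes (45.5%) and at 7 of the 33 others (21.2%). These 5 were eIF1A, eIF2gamma, eIF3a, eIF3c and eIF6, and so differ in part from the 5 genes with a DRE near the summit, since the windows differ. Among all protein-coding genes it was present at 14.9% of those occupied and 8.22% of those not occupied. The 7 eIF promoters with a DRE and no reproducible summit were those of eIF2Bbeta, eIF2alpha, eIF3f1, eIF3l, eIF4A, eIF4B and eIF4E6. A match describes these letters and shows no binding of DREF or BEAF-32.

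A reproducible promoter summit was found at 11 of 44 eIF genes (25%), where 17.1% of all protein-coding genes had one. These 11 genes were eIF6, eIF3h, eIF3c, eIF4EHP, eIF1, eIF3a, eIF3m, eIF2A, eIF5B, eIF1A and eIF2gamma. For the spread between replicates, the 3511 strongest entries of each replicate were used. They gave 13, 11 and 13 eIF genes in replicates 1, 2 and 3, with 16.8%, 16.2% and 17.2% of protein-coding genes, or a mean of 28% ± 2.62 (SD, n = 3) of eIF genes and 16.8% ± 0.503 of all protein-coding genes. The share of eIF genes was higher than that of all genes in each of the 3 replicates, by 11.3 percentage points ± 2.18 (SD, n = 3). The 3 replicates share the same genes and the same line, so this spread does not carry the chance of which genes make up a list of 44, and no test of the list was made.

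**Figure D1:**
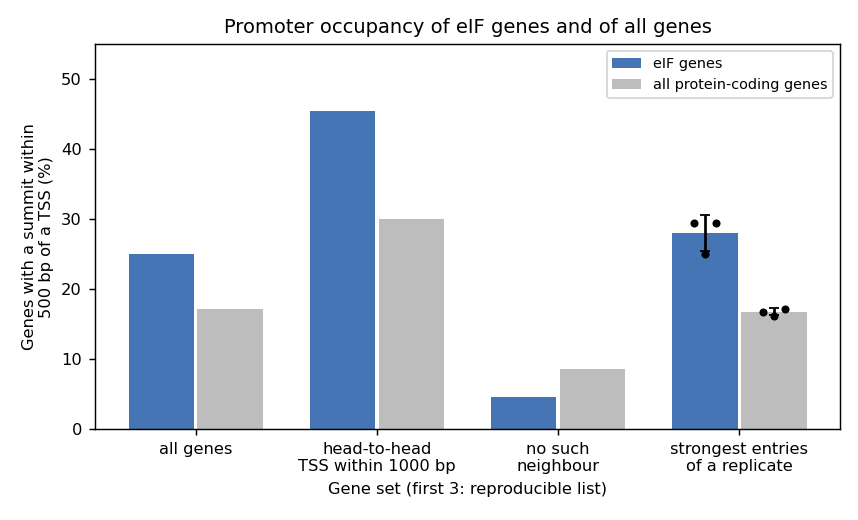
Share of genes with a summit within 500 bp of a TSS, for eIF genes (blue) and all protein-coding genes (grey). The first 3 pairs of bars use the reproducible list and have no error bar; the last pair shows the mean of the 3 replicates' 3511 strongest entries, with points for replicates and bars for SD. The eIF share was 25% against 17.1%, 45.5% against 30% at genes with a head-to-head neighbour, and 4.55% against 8.56% at the others.

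Occupancy went with a close neighbour on the opposite strand. Of the 44 eIF genes, 22 had the TSS of another gene pointing away from their own within 1000 bp (50%), against 39.6% of protein-coding genes. Occupied were 10 of these 22 (45.5%), where 30% of protein-coding genes of that kind were occupied. Of the 22 eIF genes without such a neighbour, only eIF2A was occupied (4.55%), where the share over protein-coding genes was 8.56%. A summit between a pair of close start sites can count for both genes. How much this counting adds to the difference was not tested.

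The strongest of the sites was that of eIF6, which encodes a factor that binds the large ribosomal subunit and keeps it from joining the small one. Its gene (FBgn0034915) lies on 2R, 23849246 to 23850301, and the peak spanned 23850226 to 23850574, with a signal of 1427 and rank 25 of 3511. The peak ranked 28 in replicate 1, 21 in replicate 2 and 25 in replicate 3, with signals of 436, 552 and 439 on each list's own scale. Its rank was thus alike in all 3 replicates, and the next eIF gene ranked 249. The summit lay 101 bp upstream of the eIF6 TSS and 72 bp downstream of the start of asRNA:CR45928, a non-coding gene on the opposite strand whose start site is 29 bp away.

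Among the genes for scanning, start codon selection and subunit joining, eIF1, eIF1A and eIF5B were occupied and eIF5 was not. This group of 4 genes was not tested against the 17.1% of all protein-coding genes. eIF1 (FBgn0035423; 3L, 3223341 to 3224650) had a peak of rank 658 and a signal of 307, which ranked 416, 774 and 1280 in replicates 1, 2 and 3. Its summit was 326 bp upstream of eIF1 and only 55 bp upstream of RpL28, a gene of a large-subunit ribosomal protein on the opposite strand. That peak was thus nearer to the ribosomal protein gene than to eIF1. eIF1A (FBgn0026250; 3R, 18274665 to 18283005) had a peak of rank 2545 and signal 136, with ranks 2131, 1983 and 3695 in the replicates, the last of them outside the 3511 strongest. The summit was 176 bp upstream of eIF1A and 43 bp upstream of Vps39, which encodes a subunit of the HOPS tethering complex. eIF5B (FBgn0026259; 3L, 3428658 to 3460977), the GTPase of subunit joining, had a peak of rank 2366 and signal 142, with ranks 2182, 2366 and 2796. Its summit lay 138 bp upstream of an inner TSS of eIF5B, inside the 5′ UTR of a longer transcript, and within 500 bp of no other gene. eIF5, which stimulates GTP hydrolysis by eIF2, had no pooled promoter entry and a single entry in replicate 1, at rank 29617.

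Of the 3 eIF2 subunit genes, eIF2gamma was occupied, and of the 5 genes of its exchange factor eIF2B none was. Both counts are close to what the 17.1% share of all protein-coding genes gives in so few genes. eIF2gamma (FBgn0263740; 3R, 15257844 to 15263458) encodes the GTP-binding subunit, and shares its TSS with Su(var)3-9, the gene of a histone H3 lysine methyltransferase. The summit was 5 bp upstream of that shared TSS and 89 bp upstream of Set, which encodes a histone chaperone on the opposite strand. The peak had rank 2624 and signal 133, and ranked 2518, 4109 and 2379 in replicates 1, 2 and 3. It was among the 3511 strongest entries in replicates 1 and 3 and below them in replicate 2. eIF2alpha, whose product is the target of stress kinases, had no promoter entry in any list, and eIF2beta a single one in replicate 1 at rank 16878. Of the eIF2B genes, eIF2Bepsilon had a pooled entry of rank 7186, 86 bp upstream of its TSS and also within 500 bp of a TSS of Ocrl. eIF2Bbeta had no entry within 500 bp, although a reproducible summit lay 677 bp from its TSS, close to Ugalt, which starts 719 bp away on the opposite strand. That summit was the 3rd strongest of the list, with a signal of 2520. No other unoccupied eIF gene had a reproducible summit within 1000 bp.

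Occupied among the 16 eIF3 subunit genes were 4, namely eIF3h, eIF3c, eIF3a and eIF3m. With 17.1% of all protein-coding genes occupied, that count is near the background, and it was not tested. eIF3h (FBgn0022023, on 2L from 5051193 to 5053094) had 2 reproducible peaks that overlapped, with summits 206 bp apart. Whether these peaks mark separate sites was not tested. The stronger one, of rank 249 and signal 481, had its summit in an intron, 291 bp downstream of the nearest TSS, and ranked 253, 288 and 315 in replicates 1, 2 and 3. The weaker one, of rank 1107, had its summit 85 bp downstream in coding sequence and ranked 699, 1758 and 2775. Both lay within 500 bp of senju, which starts 63 bp from that TSS on the opposite strand. Both summits were nearer to that TSS than to senju, but it is an inner TSS of eIF3h. From the outermost TSS, at 5053094, both were farther off than from senju, and the stronger one was more than 500 bp away. Measured from the nearest TSS of the gene, the summits of the other occupied genes except eIF3c were upstream. The summits of eIF2A and eIF5B are downstream of the outermost TSS, and with the outermost TSS alone 8 summits at eIF genes were upstream.

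eIF3c (FBgn0034258; 2R, 17665678 to 17669275), a core subunit of the complex, had its summit 8 bp downstream of a TSS, and shared it with no other gene. The peak had rank 319 and signal 429, and ranked 628, 261 and 257 in the replicates. eIF3a (FBgn0037249; 3R, 4429798 to 4433895), the largest subunit's gene, had a summit 43 bp upstream that was 27 bp upstream of CG1074, with rank 1547 and replicate ranks of 1320, 1230 and 2125. eIF3m (FBgn0033902; 2R, 14163066 to 14164825) had a summit 87 bp upstream that was 139 bp upstream of CG8323, with rank 1803 and replicate ranks of 1903, 2178 and 1847. All 4 of these genes held an entry among the 3511 strongest in each replicate. The genes eIF3d, eIF3f and eIF3g exist as numbered copies, and neither copy was occupied. For eIF3d1 the pooled rank was 3972 and for eIF3d2 15395; for eIF3f1 it was 12107, and eIF3f2, eIF3g1 and eIF3g2 had no pooled promoter entry.

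**Figure D2:**
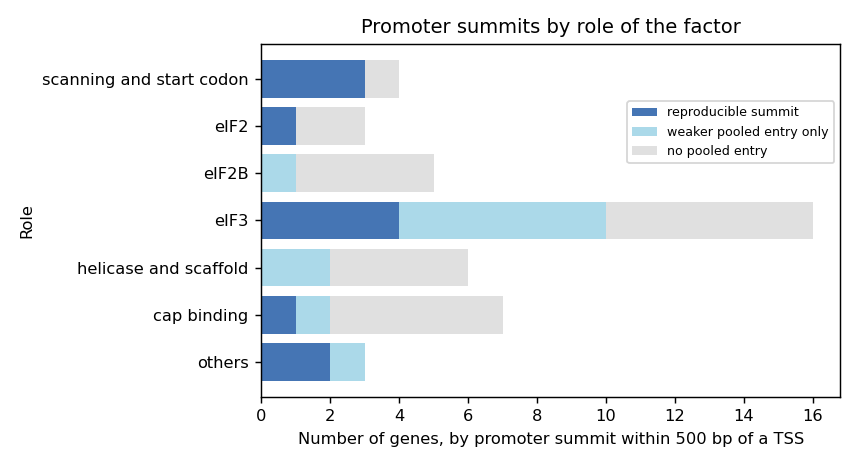
Number of eIF genes in each role group with a reproducible promoter summit (dark blue), with only a weaker entry of the pooled list (light blue) and with no pooled entry within 500 bp of a TSS (grey). Reproducible summits were found at 3 of 4 genes of the scanning and start codon group, in which eIF5B of subunit joining is counted. They were found at 4 of 16 eIF3 genes and none of 5 eIF2B or 6 helicase and scaffold genes. Of all protein-coding genes 17.1% had one. The groups are small and none was tested against that share.

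Of the 13 genes for cap binding, helicase and scaffold factors, eIF4EHP was occupied. With 17.1% of all protein-coding genes occupied, a count of 1 in 13 is too near the background to set this group apart. eIF4EHP (FBgn0053100; 3R, 24063077 to 24108960) encodes a cap-binding protein known in fly embryos for holding back translation of caudal and hunchback mRNA. It had 2 reproducible peaks with summits 208 bp apart. The stronger one, of rank 583 and signal 327, lay 116 bp upstream of eIF4EHP and ranked 733, 657 and 492 in replicates 1, 2 and 3. The other, of rank 1396 and signal 202, lay 324 bp upstream of eIF4EHP and 52 bp upstream of CG18428 on the opposite strand, and ranked 3078, 1575 and 835. Each of the 2 summits was thus nearer to a different gene, with the start sites 376 bp apart. The 208 bp between the summits is near the lower end of the 200 to 800 bp fragments. Whether they mark separate sites was not tested. None of the 6 other cap-binding genes was occupied. eIF4E1, which encodes the main cap-binding protein, had a pooled entry of rank 3911 at 9 bp upstream, with ranks of 4557, 2877 and 13214 in the replicates. eIF4E3, eIF4E4, eIF4E5 and eIF4E6 had no promoter entry in any list.

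The helicase and scaffold genes eIF4A and eIF4G2 fell just outside the reproducible list. eIF4G2, a scaffold gene known from male meiosis, had its pooled summit 24 bp upstream at rank 3546, also within 500 bp of a TSS of CG33111. The pooled summit of eIF4A, the helicase gene, was 110 bp upstream at rank 3550. The summits of these genes were 35 and 39 ranks past the last reproducible peak. Their signals of 106 were close to the lowest reproducible signal of 107. In the replicates eIF4G2 ranked 3030, 4000 and 3287 and eIF4A 3441, 5213 and 3396, so that each was among the 3511 strongest entries in replicates 1 and 3. The other 4 genes, eIF4B, eIF4G1, eIF4H1 and eIF4H2, had no pooled promoter entry. eIF4B, which encodes a helper of the helicase, lies on 3L, 27842669 to 27858271, and the nearest reproducible summit was 4762724 bp away.

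The remaining genes were eIF2A and eIF2D, whose products can bring in tRNA apart from eIF2. eIF2A (FBgn0037135; 3L, 21824740 to 21827856) had a peak of rank 2193 and signal 150, with its summit 60 bp upstream of an inner TSS and inside an annotated 5′ UTR. It ranked 1667 in replicate 1 and 2135 in replicate 3, and replicate 2 had no entry there. This was the one occupied eIF gene missing from a whole replicate list. eIF2D had a pooled entry of rank 5494 at 133 bp upstream, with ranks of 7561, 6526 and 5496.

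**Figure D3:**
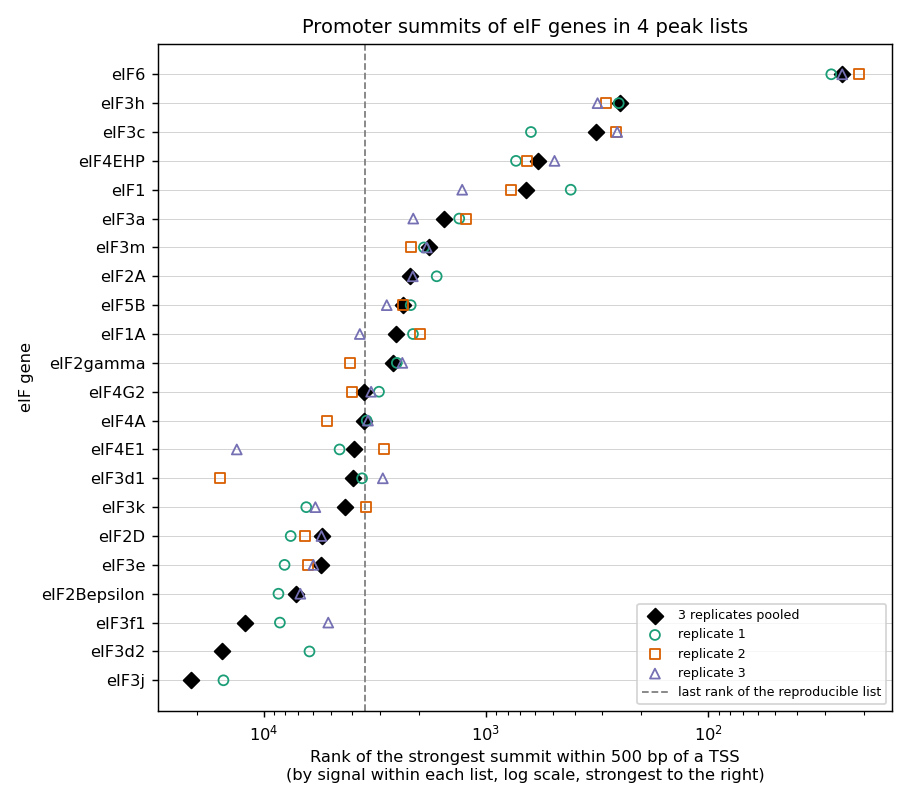
Rank of the strongest promoter summit of each of the 22 eIF genes that had one in the pooled list (diamonds), with the rank in each replicate (open symbols), on a log axis. The dashed line marks rank 3511, the end of the reproducible list. eIF6 stood at ranks 21 to 28 in all lists, and eIF4G2 and eIF4A next to the line.

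Looked at by position, the 13 summits at occupied eIF genes were upstream of the nearest eIF TSS in 10 cases (76.9%), where 88.0% of 2615 pairs of a protein-coding gene and a reproducible promoter peak had the summit upstream. The median position was -87 bp for eIF genes, within a range of -326 to 291, and -119 bp over all pairs. In 7 cases the summit was within 150 bp upstream. Replicate entries were found for 38 of the 39 combinations of peak and replicate, with the summit a median of 11.5 bp and at most 78 bp from that of the reproducible peak. The GC content of the 101 bp around the summits had a median of 43.6%, against 37.6% over all reproducible promoter peaks.

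Most occupied eIF genes shared their peak. At 8 of the 11 (72.7%) the summit was also within 500 bp of another gene's TSS, as for 63.2% of all occupied protein-coding genes. In 7 of these 8 the neighbour was a protein-coding gene on the opposite strand, and at eIF6 it was the antisense RNA gene alone. eIF3c, eIF2A and eIF5B had a peak to themselves. At eIF6, eIF1, eIF3a and eIF1A every summit was nearer to the start of the other gene. With each summit given only to the gene of the nearest TSS, 7 eIF genes stayed occupied (15.9%), and 12.4% of protein-coding genes. Which of a pair of close genes a summit belongs to was not tested.

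**Figure D4:**
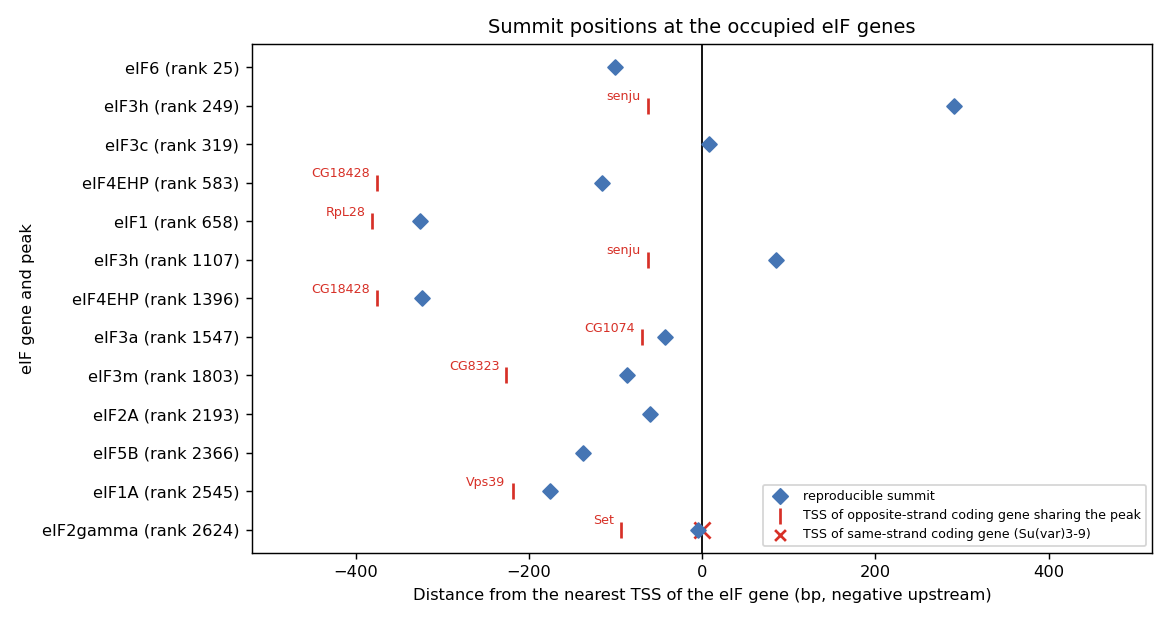
Distance of each of the 13 reproducible summits (diamonds) from the nearest TSS of its eIF gene, in bp and with negative values upstream, ordered by rank. Red marks are the start sites of protein-coding genes within 500 bp of the same summit. The 3 summits at eIF3h and eIF3c lie downstream, and those of eIF1, eIF3a, eIF1A and 1 of 2 at eIF4EHP lie nearer to the red mark than to 0.

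The other 33 eIF genes were not uniformly empty. A weaker pooled entry within 500 bp of a TSS was found at 11 of them, or 25% of all eIF genes, against 28% of protein-coding genes. These lists include background by design. In total 22 of 44 had a pooled entry (50%, with 45.0% of protein-coding genes), and 17 had an entry in all 3 replicates (38.6%, with 30.7%). By replicate, 28, 19 and 23 eIF genes had an entry of any strength, or 63.6%, 43.2% and 52.3%, where 49.9%, 44.9% and 46.6% of protein-coding genes had one. Of the 33, 5 were among the 3511 strongest entries of at least 1 replicate, namely eIF4G2, eIF4A, eIF4E1, eIF3d1 and eIF3k. The share of protein-coding genes by that rule was not computed, so this count only describes these genes. No promoter entry in any list was found at 12 eIF genes (27.3%, with 34.6% of protein-coding genes). None of the 7 eIF genes on X was occupied, where 15.8% of protein-coding genes on X were. The arm was looked at after the values were seen.

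Within gene bodies, more than 500 bp from any TSS of the gene, reproducible summits were found in 2 eIF genes (4.55%), where 5.94% of protein-coding genes had one. These were eIF4EHP and eIF5B, the 2 eIF genes of 20000 bp or longer. Among protein-coding genes of at least that length 37.6% had such a summit, and among shorter ones 3.46%. That limit was set after the values were seen. The summit in eIF4EHP was in an intron 9790 bp from its TSS, with rank 1058 and signal 237, and ranked 2243, 946 and 612 in replicates 1, 2 and 3. The nearest start site there was that of Syx1A, a syntaxin gene that lies inside eIF4EHP, 6593 bp away. The summits in eIF5B were in introns 10734 and 21925 bp from the nearest TSS of eIF5B, with ranks 3390 and 2184. They ranked 3715, 3702 and 2850, and 3177, 1899 and 2824, in the replicates. The pooled list had 44 entries in the bodies of 17 eIF genes (38.6%, with 36.9% of protein-coding genes), of which 26 were in introns and 18 in coding exons. All 3 reproducible ones were intronic.

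**Figure D5:**
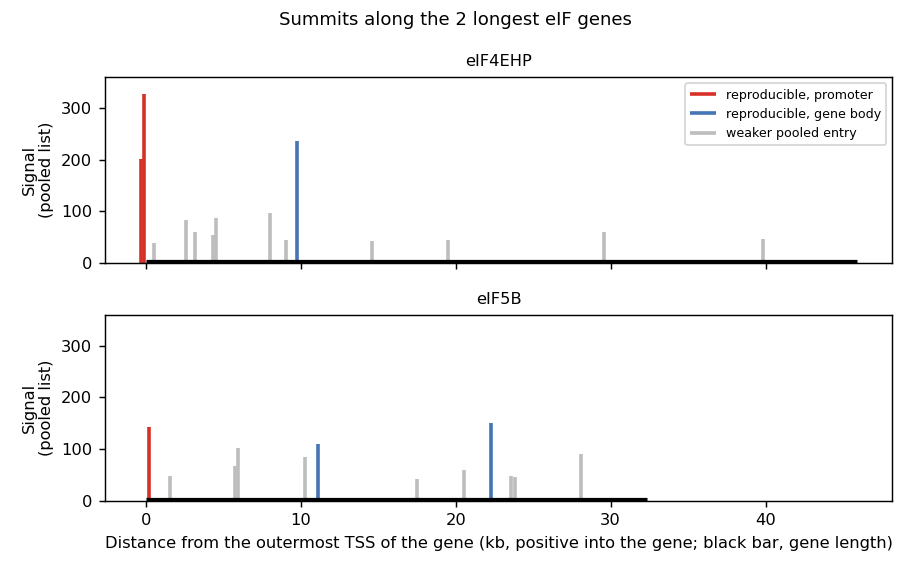
Summits along eIF4EHP and eIF5B by distance from the outermost TSS in kb, with the height giving the signal of the pooled list. Red lines are reproducible promoter summits, blue lines reproducible gene body summits (1 in eIF4EHP, 2 in eIF5B), grey lines weaker pooled entries, and the black bar is the gene.

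Other genes of translation were set beside the eIF genes. These lists were picked by name with earlier results of these data known, so their shares are not independent of those results. Of 10 genes for elongation and release factors, 5 were occupied (50%, against 17.1% of protein-coding genes): eEF1gamma, eEF1alpha1, eEF5, eEF2 and eRF1, at ranks from 447 to 2089. Of 17 genes that regulate initiation, 7 were occupied (41.2%). larp, which encodes an RNA-binding protein of growth control, had rank 27 in the pooled list and 31, 26 and 30 in the replicates. mTor, the growth kinase gene, had rank 794, and pAbp, the gene of the poly(A)-binding protein that contacts eIF4G, rank 926. Thor, whose product binds and blocks eIF4E, had rank 2607, with 4355 in replicate 3, and Lk6, an eIF4E kinase gene, rank 2858, with 9756 in replicate 3. Gcn2, which encodes an eIF2 kinase, had rank 3296, with 14669 in replicate 3. Paip2, whose product binds pAbp, had rank 3475, close to the end of the reproducible list. PEK, the other eIF2 kinase gene, and crc, the fly ATF4 gene, had weaker entries only. Positions from the TSS, negative upstream, were -332 bp for larp, -297 bp for mTor and -242 bp for Gcn2. They were -34 bp for Thor, 7 bp for Lk6, 83 bp for Paip2 and 466 bp for pAbp, near the 500 bp limit. At the 5 occupied elongation and release genes they ranged from -85 to -2 bp. Whether these summits lay nearer to the TSS of another gene was not tested, so the shares include any such summits. No test between these lists was made.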

How the data were processed

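Peaks came from ChIP-seq with an antibody against GFP in 3 biological replicates of 1 group; shearing gave 200 to 800 bp, per the labels. Each deposited sample's listing names, for every replicate and for the replicates pooled, a list of peaks and background made by the authors from the alignments and 1 further file whose role is unstated (the labels name possible controls), and a reproducible list taken from these by IDR. Which aligner, peak caller and cut-off were used is not given in the sources used here. The authors' deposited signal value has no stated scale and served only for ranks and descriptions inside a list. The authors' deposited −log10 q-value was not used. Summits are the authors' deposited offsets. Lists on dm3 were not used. Between 0.7% and 1.2% of summits coincided in a pair of replicates, which were therefore kept as separate samples. Because the lists hold no counts, depth is unknown and no interval was computed.

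Genes and TSSs came from Ensembl release 115 (BDGP6.54, the dm6 assembly), without transposable elements; sequence came from the RefSeq copy of that assembly. Coordinates are 1-based. Scripts ran in Python 3.11.15 with pandas 2.3.3 and were tested on simulated summits. Motif windows were 50 bp on either side of the summit. Replicate entries were matched to a peak by an overlap of 1 bp or more, taking the nearest summit. All eIF genes are named by rule. With 1 group, no comparison of conditions and no set test was made. The members and lists were chosen with earlier results of these data known. Alternatives were TSS windows of 200 and 1000 bp, the outermost TSS, stricter lists, other overlap rules and leaving out each replicate.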

Additional observations from a re-analysis of the deposited data

How the results depend on the processing

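Of 47 alternative values, 39 stayed within 1.5 times the main count or, for the median position, within the 14.6 bp SD of the replicates, and 8 moved. With the upper 1755 reproducible peaks, eIF genes occupied numbered 6 (13.6%, against 9.67% of protein-coding genes), upstream summits 5, sharing genes 5, genes with a body summit 1 and the median position -72 bp; eIF3m, eIF2A, eIF5B, eIF1A and eIF2gamma were lost, by construction. With the nearest TSS only, 7 eIF genes were occupied, without eIF6, eIF1, eIF3a and eIF1A, and 12.4% of protein-coding genes. With the outermost TSS the median position was -65 bp. With the 1755 strongest entries of each replicate a mean of 6 genes was occupied. With a replicate left out, each peak had to meet the strongest entries of both others. This left 8 to 10 occupied eIF genes, with 13.5% to 13.7% of protein-coding genes occupied. The genes eIF1A, eIF2A and eIF2gamma were lost in at least 1 case. The median position was then -101 to -73.5 bp, with 7 to 9 upstream summits, 6 to 7 sharing genes and 2 genes with a body summit. The mean over the remaining replicates was 12 to 13 genes. A window of 200 bp lost eIF1 and one of 1000 bp gained eIF2Bbeta, with 12.3% and 19.7% of protein-coding genes occupied. Of the 13 peaks, 10 met strongest entries in all 3 replicates, with 1 bp or with 50% overlap. The lists of replicates 1 and 2 end at 30000 entries, so weaker sites cannot be compared.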
